A study of Mus musculus with 12 samples.

Results

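The genes described here are 9 Toll-like receptors and Unc93b1, the protein that carries some of them to their place of work, in whole lung of mice of 4 ages. They were taken by symbol from the deposited count table, which gave 10 of 55487 genes, all protein coding, and all 10 were among the 18407 genes with enough counts to be tested. Mice were of the C57BL/6NCr strain, at 6, 12, 20 and 30 months (6M, 12M, 20M and 30M), and each age had 3 libraries. Whole lung was used without any labelled treatment or genetic change, the labels do not give the sex, and they do not tie libraries to animals, so a p-value here covers the spread among libraries, which may be technical. Libraries are named by age and number, such as 30M_216.

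Toll-like receptors are membrane proteins that recognise molecules of microbes and, in some cases, of the host's own dead cells. One set sits at the cell surface and binds lipids and lipoproteins (Tlr1, Tlr2, Tlr4, Tlr6), while another sits in endosomes and binds nucleic acids (Tlr3, Tlr7, Tlr8, Tlr9, Tlr13). Unc93b1 escorts the nucleic acid receptors from the endoplasmic reticulum to endosomes. Most of the receptors signal through the adaptor Myd88, and Tlr3 signals through Ticam1. In lung they are known from macrophages, monocytes, dendritic cells, neutrophils and B cells, and some also from epithelium and endothelium.

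Library totals ran from 12152066 to 15058628 counts, and the lung label fitted the markers: summed surfactant and other alveolar type 2 cell genes reached at least 13887 CPM and airway genes at least 26866 CPM in every library. CPM is the count divided by the TMM-scaled library total, times 1e+06. Some libraries stood apart. Levels relative to the 6M mean followed GC content of the genes with a Spearman rho of 0.465 for 20M_222, 0.358 for 20M_221, 0.328 for 30M_220 and 0.229 for 12M_208. The others had -0.0869 to 0.0518, and all are descriptions, since genes are not independent. 20M_222 also held skeletal muscle transcripts, at 2003 CPM summed over 4 markers, where the other libraries had 9.20 to 39.2 CPM.

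Sequence bears on how well single members can be read. Tlr1 (ENSMUSG00000044827, chromosome 5, 64924679 to 64933563) and Tlr6 (ENSMUSG00000051498, chromosome 5, 64952031 to 64960097) lie 18467 bases apart on GRCm38 and share long identical stretches. Of all windows of 100 bases in the longest Tlr1 transcript, 8.85% also occur in another gene, and of those in Tlr6 7.24%, the partner being the other of the pair in both cases. The longest shared run is 229 bases, printed because reads that fall wholly inside it cannot be assigned to either gene, so that the counts of both are uncertain.
Tlr1 and Tlr6 shared run: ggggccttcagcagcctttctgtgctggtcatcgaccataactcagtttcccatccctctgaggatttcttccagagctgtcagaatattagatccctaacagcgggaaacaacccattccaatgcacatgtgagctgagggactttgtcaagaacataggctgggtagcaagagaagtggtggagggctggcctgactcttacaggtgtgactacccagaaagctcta
Of the Tlr3 transcript, 0.418% of such windows also occur in Gm45542, whose exons overlap those of Tlr3 by 381 bases on the opposite strand. The other 7 members shared no window with another gene.

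The GRCm38.p6 table of RefSeq gives 9 promoters of 7 members (Tlr1, Tlr2, Tlr3, Tlr6, Tlr8, Tlr9 and Tlr13). Those printed are of the nucleic acid receptors whose window holds GAGGAA, namely Tlr8, Tlr13 and Tlr9, as the bases before the RefSeq start that lie outside annotated exons. The Tlr3 window holds no GAGGAA. Capitals mark GAGGAA on either strand, the core of the site bound by PU.1 (the product of Spi1) and other ETS factors, and TTCNNNGAA, the pattern bound by STAT factors.
Tlr8 promoter, minus strand of chrX:167264330-167264579: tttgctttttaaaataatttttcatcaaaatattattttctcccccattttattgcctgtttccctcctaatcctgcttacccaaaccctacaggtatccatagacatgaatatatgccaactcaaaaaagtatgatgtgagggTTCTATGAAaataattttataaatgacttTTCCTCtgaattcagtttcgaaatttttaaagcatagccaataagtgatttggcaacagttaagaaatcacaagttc
Tlr13 promoter, plus strand of chrX:106143025-106143203: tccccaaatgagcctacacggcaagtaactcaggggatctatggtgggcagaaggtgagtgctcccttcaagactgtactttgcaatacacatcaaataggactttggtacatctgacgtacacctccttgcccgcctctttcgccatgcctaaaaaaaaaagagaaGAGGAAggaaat
Tlr9 promoter, plus strand of chr9:106222348-106222597: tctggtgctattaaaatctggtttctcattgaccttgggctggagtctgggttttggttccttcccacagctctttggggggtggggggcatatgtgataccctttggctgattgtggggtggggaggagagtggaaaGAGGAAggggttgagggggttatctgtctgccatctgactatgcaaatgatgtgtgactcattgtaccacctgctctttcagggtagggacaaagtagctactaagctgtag
GAGGAA stood in the 250 bases before the start in 4 of the 9 promoters (Tlr1, Tlr8, Tlr9 and Tlr13), against 23.3% of all 32851 promoters. In Tlr8 it began 77 bases before the start on the other strand, in Tlr13 83 bases and in Tlr9 112 bases before it. TTCNNNGAA stood in 2 of 9, in Tlr8 and in 1 of the 2 starts of Tlr1, against 7.02%. The interferon-stimulated response element pattern (GAAA, 2 bases of any kind, GAAA) stood in 1 of 9, a Tlr6 start, against 2.98%. The NF-kB pattern (GGG, 2 bases of any kind, TTTCC) stood in 1 of 9, Tlr3, against 1.41%. Both strands of the whole windows, annotated exons included, were searched for each pattern. The TTCNNNGAA match of Tlr1 and the Tlr3 match lay outside the longest exon-free stretch of their windows (39 and 72 bases). The bases that follow the Tlr6 start with a match were not found in its annotated transcripts. Such matches describe these letters in these windows only.

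Lungs of 30M, compared with 6M, carried more Tlr7, Tlr8 and Tlr13 transcript, 3.14 to 5.59 times as much, while Tlr3 and Tlr4 differed little. Of the 10 members, 3 rose (Tlr7, Tlr8 and Tlr13), 0 fell and 7 were not called, against 1.96% of all tested genes called (1.93% higher). All 3 lie on chromosome X, and the sex of the mice, which the labels do not give, was not examined. A gene is called when its Benjamini-Hochberg adjusted p over all tested genes is under 0.05 in edgeR's quasi-likelihood test. The 10 log2 fold changes had a median of 0.89 and were all positive, against a median of 0.00284 over all tested genes. At 8 of 10 members the 3 libraries of 30M all lay above the 3 of 6M, which 9.89% of all tested genes also did. Without 6M_203 the number called was 1 of 10, Tlr8, and 0.366% of all tested genes. Without the 3 libraries of steepest GC trend (20M_221, 20M_222 and 30M_220), Tlr7 (1.94, adjusted p = 0.0128), Tlr8 (2.52, 0.0101) and Tlr13 (1.84, 0.0195) were still called.

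**Figure D1:**
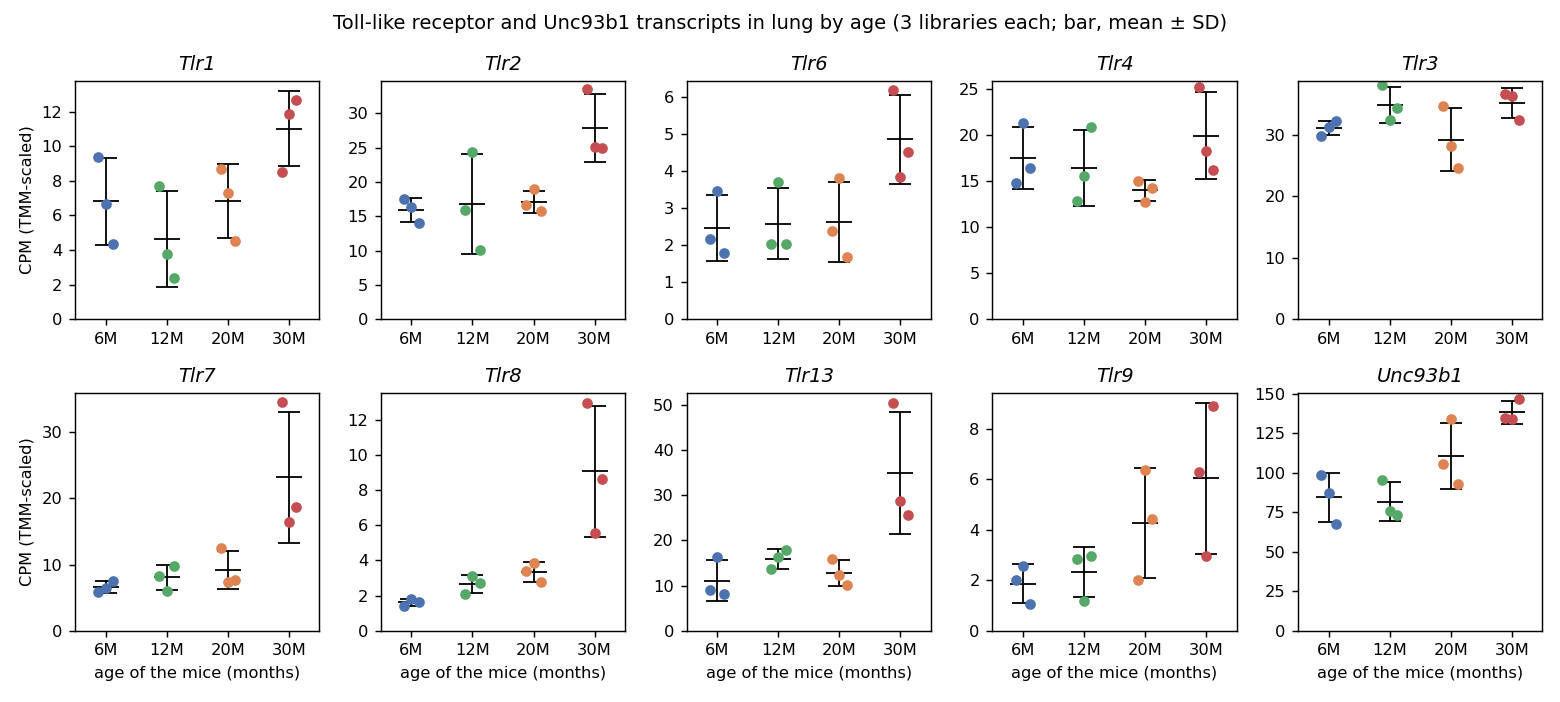
Transcript level of each member (CPM, TMM-scaled, vertical axis from 0) by age in months, with 1 point per library and bars for mean ± SD of 3 libraries. All 3 points of 30M lie above all 9 points of the younger ages for Tlr2, Tlr6, Tlr7, Tlr8, Tlr13 and Unc93b1, and the 30M points of Tlr7, Tlr8 and Tlr13 are spread more widely than those of any younger age.

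Among the nucleic acid receptors, Tlr8 changed most. Tlr8 (ENSMUSG00000040522, chromosome X, 167242696 to 167264329), which in mouse is known mainly as a neighbour and modulator of Tlr7, stood at 1.42, 1.81 and 1.61 CPM at 6M, 2.0999, 3.11 and 2.70 at 12M, 3.38, 3.87 and 2.77 at 20M, and 12.965, 5.57 and 8.65 at 30M. The 3 libraries of 30M were the highest of all 12, and those of 12M and of 20M lay above all of 6M. Tlr8 had 363 counts over the 30M libraries and 61 over those of 6M. Its log2 fold change at 30M against 6M was 2.48 (SE 0.33, adjusted p = 0.00285), and it stayed called in each of the 12 fits that lacked 1 library (largest adjusted p 0.0266). On the joint test over 4 ages its adjusted p was 0.00712, where 1.11% of tested genes were called.

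Tlr7 (ENSMUSG00000044583, chromosome X, 167304929 to 167330558), a receptor of single-stranded RNA whose gene lies 40599 bases from that of Tlr8, showed the same order of ages. Its level was 5.89, 6.43 and 7.59 CPM at 6M, 8.32, 6.06 and 9.79 at 12M, 12.5, 7.43 and 7.66 at 20M, and 34.5, 16.4 and 18.7 at 30M. The library 30M_216 was the highest for Tlr7, as it was for Tlr8, Tlr13, Tlr2, Tlr4 and Tlr6. Tlr7 rose by a log2 fold change of 1.81 (SE 0.31, adjusted p = 0.00976) at 30M against 6M, without a call when 6M_202 (adjusted p = 0.0584) or 6M_203 (0.0542) was left out. Its joint test over ages gave an adjusted p of 0.0208, and lost the call without 6M_201 (0.0522), 6M_202 (0.0602), 6M_203 (0.0509) or 30M_216 (0.118).

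Tlr13 (ENSMUSG00000033777, chromosome X, 106143204 to 106160493) recognises bacterial ribosomal RNA in mice and has no human counterpart. Its level was 9.02, 16.2 and 8.07 CPM at 6M, 13.6, 16.3 and 17.97 at 12M, 15.8, 12.4 and 10.1 at 20M, and 50.5, 28.7 and 25.7 at 30M. All libraries under 30M lay within 8.07 to 17.97 CPM with no order by age, and the 30M libraries stood above them. The log2 fold change at 30M against 6M was 1.65 (SE 0.31, adjusted p = 0.0151), and the call was lost without 6M_201 (0.0720) or 6M_203 (0.108). On the joint test Tlr13 had an adjusted p of 0.0338, a call that held only without 6M_202, 20M_213 or 30M_220 among the single libraries left out (up to 0.178), and not without the 3 libraries of steepest GC trend (0.0835).

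Tlr9 and Tlr3, the other nucleic acid receptors, were not called. Tlr9 (ENSMUSG00000045322, chromosome 9, 106222598 to 106226883), the receptor of unmethylated CpG DNA, stood at 2.01, 2.56 and 1.05 CPM at 6M, 2.85, 1.18 and 2.95 at 12M, 1.998, 6.37 and 4.45 at 20M, and 6.28, 2.95 and 8.91 at 30M. Its 4 highest libraries were 30M_220, 20M_221, 30M_216 and 20M_222, all but 30M_216 with a steep GC trend, and its transcript has a GC content of 56.2%, against 39.4% to 57.3% in the other members. The log2 fold change at 30M against 6M was 1.69 with an SE of 0.53 (adjusted p = 0.158), and 1.30 (adjusted p = 0.315) without the 3 libraries of steepest GC trend. Tlr3 (ENSMUSG00000031639, chromosome 8, 45395665 to 45411080), which binds double-stranded RNA, stood at 36.7, 36.4 and 32.4 CPM at 30M and at 29.9, 31.2 and 32.3 CPM at 6M. Between these ages it differed by a log2 fold change of 0.18 (SE 0.14, adjusted p = 0.740), and its range over all 12 libraries was 24.6 to 38.1 CPM.

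Ratios of genes within a library do not depend on the scaling between libraries, and Tlr3 served as the denominator because it is the nucleic acid receptor with the smallest change. Both it and the 3 numerators were picked for the values given above, so these ratios restate them and carry no test. Per 100 counts of Tlr3 there were 94.1, 44.9 and 57.8 counts of Tlr7 at 30M, against 19.7, 20.6 and 23.5 at 6M. For Tlr8 the values were 35.3, 15.3 and 26.7 at 30M and 4.74 to 5.80 at 6M. For Tlr13 they were 137.5, 78.7 and 79.3 at 30M and 25 to 51.98 at 6M. The mean log2 differences at 30M minus 6M were 1.56 for Tlr7, 2.24 for Tlr8 and 1.48 for Tlr13.

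Unc93b1 (ENSMUSG00000036908, chromosome 19, 3935186 to 3949340) stood at 98.7, 86.97 and 67.7 CPM at 6M, 95.6, 75.8 and 73.2 at 12M, 105, 134 and 93.0 at 20M, and 134.3, 133.9 and 146.7 at 30M. The 30M libraries lay close together and above all 6M and 12M libraries, with 20M_221 (133.8 CPM) just under the lowest of them. At 30M against 6M the log2 fold change was 0.71 (SE 0.17) and the adjusted p 0.0552, so it was not called there. As a slope on months Unc93b1 gained 0.033 (log2 per month, SE 0.0067, adjusted p = 0.0159). Its transcript has the highest GC content of the members (57.3%), and with the GC trend of each library removed the slope was 0.026 (adjusted p = 0.0613). The slope call was also lost without 6M_203 (0.0625) or 30M_220 (0.0661).

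Of the 4 surface receptors 0 were called at 30M against 6M, with log2 fold changes of 0.19 to 0.98. Tlr2 (ENSMUSG00000027995, chromosome 3, 83836272 to 83841767), which binds bacterial lipoproteins as a pair with Tlr1 or Tlr6, stood at 33.5, 25.1 and 24.98 CPM at 30M, against 17.4, 16.4 and 14.05 CPM at 6M. The groups did not overlap, with a log2 fold change of 0.80 (SE 0.26, adjusted p = 0.172). Tlr6, the partner for diacylated lipoproteins, averaged 4.86 ± 1.21 CPM at 30M and 2.47 ± 0.884 CPM at 6M (SD, n = 3 each; log2 fold change 0.98, SE 0.39, adjusted p = 0.321). Tlr1, the partner for triacylated lipoproteins, averaged 11.02 ± 2.19 CPM at 30M and 6.81 ± 2.52 CPM at 6M (0.69, SE 0.40, adjusted p = 0.569), and its groups overlapped. Tlr4 (ENSMUSG00000039005, chromosome 4, 66827584 to 66930284), the receptor of lipopolysaccharide, stood at 25.2, 18.3 and 16.2 CPM at 30M and at 14.8, 21.3 and 16.4 CPM at 6M. Its groups overlapped and the log2 fold change was 0.19 (SE 0.22, adjusted p = 0.858). Whether surface and endosomal receptors differed as sets was not tested.

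For Tlr7, Tlr8 and Tlr13 the fold change at 30M against 20M was larger than that at 20M against 6M, though neither carried a call and the difference between the steps was not tested. At 30M against 20M the log2 fold changes were 1.33 for Tlr7 (SE 0.30, adjusted p = 0.109), 1.43 for Tlr8 (SE 0.31, 0.0929) and 1.44 for Tlr13 (SE 0.30, 0.0875). In that comparison edgeR called 0 of 10 members, where 0.212% of tested genes were called, with 6 of 10 at an unadjusted p under 0.05, as at 8.89% of tested genes. DESeq2 called 3 of 10 members and 1.73% of tested genes there, and limma voom 2 of 10 and 1.17%. At 20M against 6M the same receptors differed by 0.47 (SE 0.31), 1.05 (SE 0.33) and 0.21 (SE 0.31), with adjusted p of 0.653, 0.638 and 0.830. There too 0 of 10 members were called by edgeR, DESeq2 or limma voom, with 3 of 10 at an unadjusted p under 0.05 in edgeR, as at 7.8% of tested genes. Of all tested genes edgeR called 0.0163%, DESeq2 0.326% and limma voom 3.31% in this comparison. For 12M against 6M and 20M against 12M these 3 tools again called 0 of 10, and edgeR and limma voom called 0% and DESeq2 0.0489% of tested genes in each. At an unadjusted p under 0.05 there were 0 of 10 for 12M against 6M (3.6% of tested genes) and 1 of 10 for 20M against 12M (11.2%). The libraries lay above without overlap at 7 of 10 members for 30M against 20M (5.85% of tested genes) and at 1 of 10 for 20M against 6M (7.6%), which was Tlr8. They did so at 2 of 10 for 12M against 6M (6.3%), Tlr3 and Tlr8, and at 0 of 10 for 20M against 12M (7.43%). These comparisons share libraries and are not independent.

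**Figure D2:**
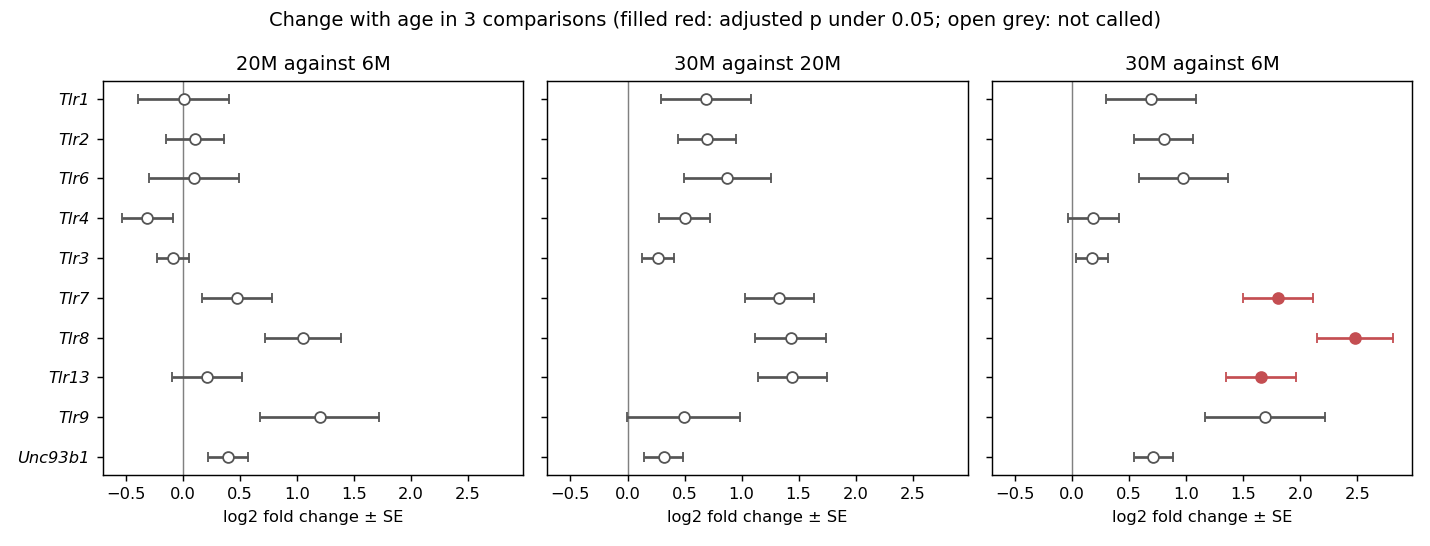
Log2 fold change (horizontal axis, with SE bars) of each member in 3 panels, 20M over 6M, 30M over 20M and then 30M over 6M, from edgeR, filled red where the adjusted p was under 0.05. Filled points appear only at 30M against 6M, for Tlr7, Tlr8 and Tlr13, and the changes of Tlr7 and Tlr13 are larger at 30M against 20M than at 20M against 6M.

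Against 12M, the libraries of 30M had more Tlr8 (log2 fold change 1.78, SE 0.32, adjusted p = 0.0295) and Tlr7 (1.53, SE 0.31, adjusted p = 0.0415), so 2 of 10 members rose and 0 fell, against 0.712% of tested genes called (0.657% higher). At 7 of 10 members the 30M libraries all lay above those of 12M, as at 7.49% of tested genes. Tlr13 had 1.13 (SE 0.30, adjusted p = 0.124) and Unc93b1 0.76 (SE 0.17, adjusted p = 0.0686). The count was 0 without 12M_206, 12M_207, 12M_208 or 30M_216, where 0% to 0.234% of all tested genes were called, and 1 without 6M_201, 6M_202, 6M_203, 20M_221 or 30M_218 (0.192% to 0.562%). With only the 2 ages in the fit, the adjusted p was 0.0943 for Tlr7 and 0.0882 for Tlr8. Over months as a number, 4 of 10 members rose (Tlr7, Tlr8, Tlr13 and Unc93b1) and 0 fell, where 2.68% of tested genes were called (2.5% higher). Tlr8 gained 0.0996 per month on the log2 scale (SE 0.012, adjusted p = 0.00151) and ranked 7th of 18407 genes by p. Tlr7 gained 0.074 (SE 0.012, adjusted p = 0.00495), Tlr13 0.062 (SE 0.014, adjusted p = 0.0256), and Tlr9 had 0.074 (SE 0.019, adjusted p = 0.0559) without a call. The slope of Tlr9 was called with DESeq2 (0.00685), with no filter on low counts (0.0443), and without 20M_213 (0.0453) or 30M_218 (0.0297). A slope need not mean a steady rise, since Tlr13 had no order by age below 30M, with -0.31 (SE 0.30) at 20M against 12M. The slope of Tlr13 lost its call without 6M_201 (0.0634), 6M_203 (0.0877), 30M_216 (0.101), 30M_218 (0.0681) or 30M_220 (0.0578), and with log2 age (0.0863). The count for the slope was 2 without 6M_203 or 30M_220, where 1.24% and 1.35% of tested genes were called. On the joint test 3 of 10 were called, and 1 without 6M_201, 6M_203 or 30M_216 (0.451% to 0.76% of tested genes).

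Compared per exon length, the members covered a wide range of levels. At 6M Unc93b1 was highest with 27.9 ± 5.17 CPM per kb, followed by Tlr3 (5.98 ± 0.232), Tlr2 (5.30 ± 0.577), Tlr4 (3.14 ± 0.610), Tlr13 (2.58 ± 1.04), Tlr1 (2.03 ± 0.752), Tlr7 (1.63 ± 0.213), Tlr6 (0.662 ± 0.237), Tlr9 (0.538 ± 0.219) and Tlr8 (0.450 ± 0.0554; SD, n = 3 for all). In this order the ranges of neighbours did not overlap between Unc93b1 and Tlr3, between Tlr2 and Tlr4, and between Tlr7 and Tlr6, and overlapped at all other steps. At 30M Unc93b1 had 45.6 ± 2.40 CPM per kb and again stood apart, while every other step of the order overlapped. There Tlr2 averaged 9.24 ± 1.62, Tlr13 8.12 ± 3.15, Tlr3 6.76 ± 0.463, Tlr7 5.69 ± 2.42 and Tlr8 2.53 ± 1.04 CPM per kb. At 12M Unc93b1 had 26.9 ± 4.04 and at 20M 36.5 ± 6.91 CPM per kb, apart from the next gene at both ages.

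**Figure D3:**
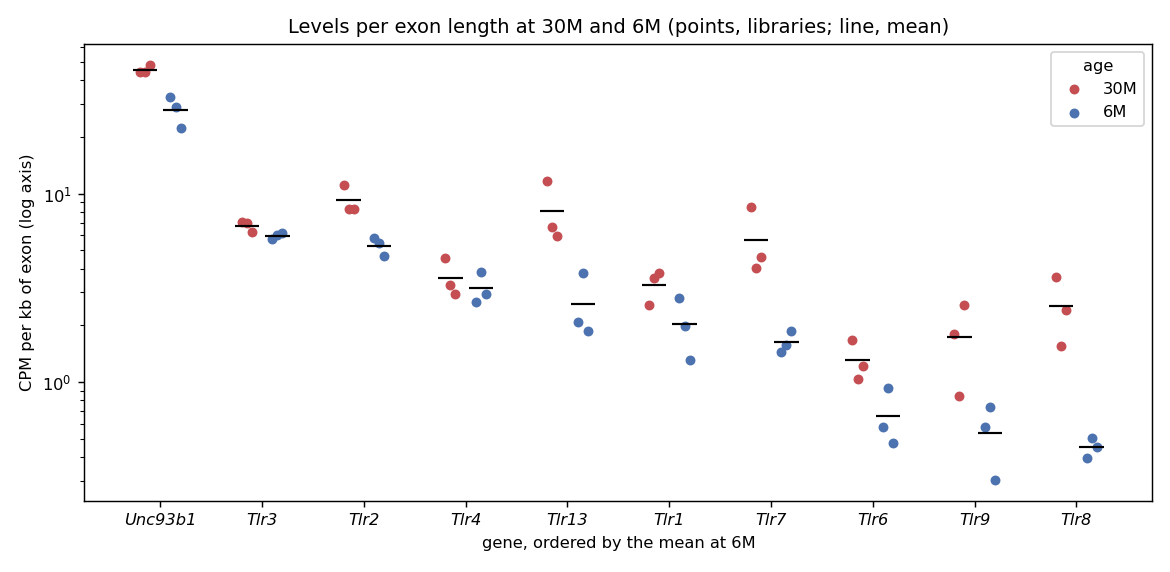
Level of each member per kb of exon (CPM per kb, log axis) at 30M and 6M, with 1 point per library and a line at the mean, ordered by the 6M mean. Unc93b1 stands above all receptors at both ages, and the distance between the 30M and 6M points is largest for Tlr8 and smallest for Tlr3 and Tlr4.

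Markers of interstitial macrophages, the macrophages of lung tissue between the air spaces, moved with the called receptors. Of 9 such markers 8 rose at 30M against 6M and 0 fell, where 1.96% of all tested genes were called. Their log2 fold changes had a median of 1.90, from 0.187 to 2.13. Their summed level was 673 to 743 CPM at 30M and 277 to 322 CPM at 6M, with no marker at 0 counts in any library. Of 7 monocyte markers 3 rose and 0 fell (1121 to 1755 CPM at 30M, 773 to 901 CPM at 6M). Their log2 fold changes had a median of 2.53, from -0.14 to 3.13. In these bulk libraries more cells of a type and more RNA per cell cannot be told apart. Per 100 CPM of the interstitial macrophage markers, Tlr8 stood at 1.75, 0.802 and 1.29 CPM at 30M and at 0.440, 0.617 and 0.583 CPM at 6M, so its libraries still did not overlap. Tlr7 had 4.65, 2.36 and 2.78 CPM at 30M and 1.83, 2.19 and 2.74 CPM at 6M, and Tlr13 had 6.80, 4.13 and 3.82 CPM at 30M and 2.80, 5.52 and 2.92 CPM at 6M, which overlapped for both. Unc93b1 had 18.1, 19.3 and 21.8 CPM at 30M and 30.7, 29.6 and 24.4 CPM at 6M, all lower at 30M. The mean log2 difference of the ratio at 30M minus 6M was 1.17 for Tlr8, 0.49 for Tlr7, 0.42 for Tlr13 and -0.51 for Unc93b1. With the monocyte markers as denominator these became 1.66, 0.98, 0.90 and -0.027. A sum follows its most abundant genes, so these ratios differ from a comparison with the typical marker. The monocyte sum was highest in 12M_208 (1306 CPM), 20M_222 (1318) and 30M_220 (1755) within their ages. The summed endothelial markers were also highest there (2730, 2127 and 2473 CPM), while at 6M the highest libraries differed. Ratios over the monocyte sum therefore need not be ratios over monocytes, and what this sum follows was not tested. The log2 fold changes of Tlr7 (1.81), Tlr13 (1.65) and Unc93b1 (0.71) lay below the medians of both marker lists. That of Tlr8 (2.48) lay above the macrophage median and below the monocyte median. The ratios were added after the data were seen and are given without a test, since the receptors were picked for their change. The part of the marked cells in the receptors' change was not tested further.

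**Figure D4:**
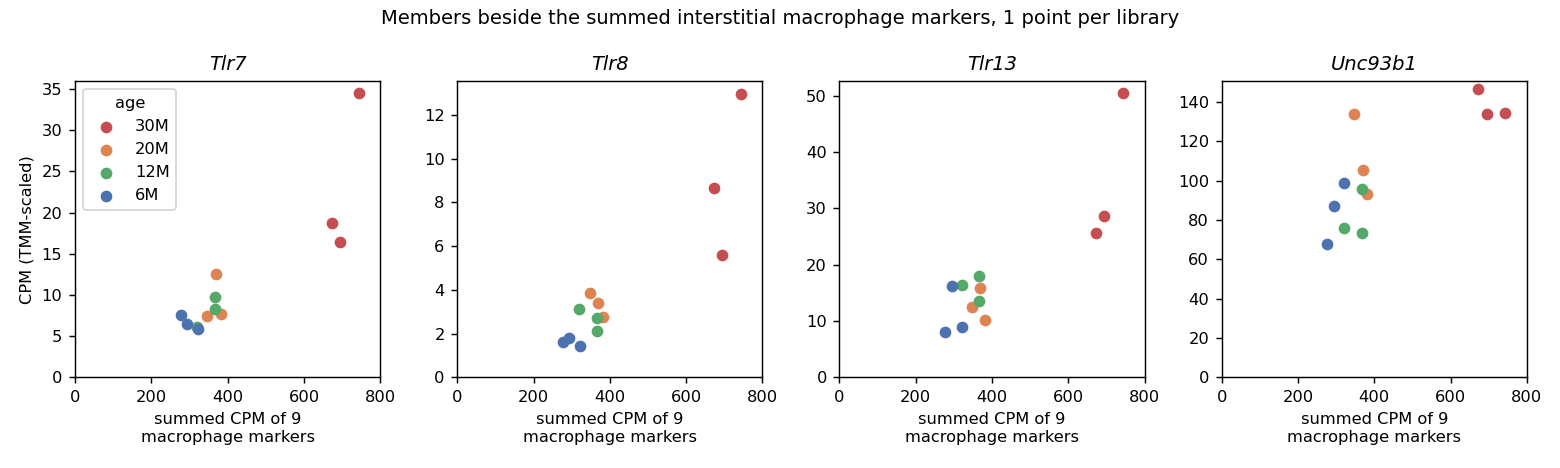
Level of Tlr7, Tlr8, Tlr13 and Unc93b1 (CPM, vertical axis from 0) beside the summed CPM of 9 interstitial macrophage markers in the same library, 1 point per library, coloured by age. The 30M libraries stand apart on the marker axis at 673 to 743 CPM, and the younger libraries lie between 277 and 382 CPM.

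Markers of T cells also stood higher at 30M against 6M, with 2 of 5 called (Cd3e and Cd3g) and 0 lower, against 1.96% of all tested genes called. Their sums were 50.5 to 74.8 CPM at 30M and 21.6 to 32.6 CPM at 6M, which did not overlap. Of 5 conventional dendritic cell markers 2 rose, Xcr1 and Flt3 (75.5 to 113 CPM at 30M, 64.7 to 81.1 CPM at 6M). Of 7 neutrophil markers 0 were called, with sums of 292 to 1311 CPM at 30M and 162 to 1020 CPM at 6M, which overlap. Of 5 plasmacytoid dendritic cell markers, a cell type known for Tlr7 and Tlr9, 0 were called (23.4 to 37.1 CPM at 30M, 14.05 to 24.6 CPM at 6M). The B cell markers were called at 0 of 6, with sums of 82.4 (30M_216), 79.0 (30M_218) and 305 CPM (30M_220), and 143 to 295 CPM at 6M. All 6 had negative log2 fold changes at 30M against 6M, with a median of -0.46 (-0.93 to -0.091). This also held against 12M and 20M, with medians of -0.67 and -0.70 and 0 of 6 called in each. Alveolar macrophage markers were called at 0 of 7 (414 to 667 CPM at 30M, 380 to 607 CPM at 6M). No marker of plasmacytoid dendritic cells, B cells or alveolar macrophages was at 0 counts in any library.

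Among 50 other genes of the pathway, 8 rose at 30M against 6M and 0 fell, with 1 gene, Sarm1, too low to test. Of all tested genes 1.96% were called (1.93% higher). The number called was 5 without 6M_201 (1.15% of all tested genes), 3 without 6M_202 (0.642%) and 2 without 6M_203 (0.366%). It was 5 without 20M_221 (1.78%), and 4 without 30M_216 (1.47%) or 30M_218 (1.14%). Of 15 adaptors and kinases 13 were not called. Among them the shared adaptor Myd88 had a log2 fold change of 0.38 (SE 0.15, adjusted p = 0.321) and its kinase Irak4 0.26 (SE 0.13, adjusted p = 0.497). Both were chosen to be named after their values were seen.

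Of the 3 other receptors in the table, Tlr11 rose. Tlr11, a mouse receptor of the protozoan protein profilin, averaged 2.34 ± 0.388 CPM at 30M and 0.609 ± 0.386 CPM at 6M (log2 fold change 1.92, SE 0.45, adjusted p = 0.0471), with 93 and 23 counts in all, and it kept its call only when 12M_208 was the library left out. It was also lost with the GC trends removed (0.0563), no filter on low counts (0.0644), only the 2 ages (0.0798) or without the 3 GC libraries (0.125). Tlr12 had 0.63 (SE 0.39, adjusted p = 0.622) and the flagellin receptor Tlr5 -0.19 (SE 0.24, adjusted p = 0.868). Of 6 co-receptors and accessory proteins, Cd180 rose (1.86, SE 0.43, adjusted p = 0.0453), a Toll-like receptor relative without a signalling domain. Its partner Ly86 had 1.47 (SE 0.46, adjusted p = 0.174) and the lipopolysaccharide-binding protein Lbp 0.83 (SE 0.31, adjusted p = 0.288; 0.22 to 1.11 without 1 library). The call of Cd180 held only without 6M_201, 12M_207 or 20M_222 among the single libraries left out. It was lost with a term for the 3 GC libraries (0.0745) or without them (0.167), with no filter (0.0597) and with only the 2 ages (0.0688).

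Of 10 genes for folding, transport and processing, 1 rose. It was Ctss, a lysosomal protease known to trim endosomal receptors, at 337 ± 93.4 CPM at 30M and 132 ± 19.6 CPM at 6M (log2 fold change 1.35, SE 0.23, adjusted p = 0.0105; 0.0887 without 6M_203). The protease Ctsb had 0.68 (SE 0.16, adjusted p = 0.0562) and the lysosomal transporter Slc15a3 0.82 (SE 0.20, adjusted p = 0.0592). The 2 adaptors or kinases that rose were Ticam2, the adaptor that links Tlr4 to Ticam1 (1.55, SE 0.32, adjusted p = 0.0269), and Pik3ap1, an adaptor for phosphoinositide kinase (0.98, SE 0.23, adjusted p = 0.0478). The kinase Ikbke had 0.85 (SE 0.27, adjusted p = 0.172). Ticam2 lost its call without 6M_201, 6M_202, 6M_203, 30M_216 or 30M_218, and Pik3ap1 kept its own only without 12M_206, 12M_207 or 30M_218. Pik3ap1 also lost it with the GC trends removed (0.0623), a term for the 3 GC libraries (0.0835) or without them (0.172).

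Of 8 transcription factors, 2 rose. Spi1, which encodes the myeloid factor PU.1, averaged 75.4 ± 4.401 CPM at 30M and 23.6 ± 8.61 CPM at 6M (log2 fold change 1.67, SE 0.24, adjusted p = 0.00416), and it stayed called without any 1 library (up to 0.0232). Irf5, which acts after Myd88, had 0.898 (SE 0.17, adjusted p = 0.0157), lost without 6M_202, 6M_203 or 30M_218 and at 0.0677 with the GC trends removed. Irf7 had 2.36 with a wide error (SE 0.58, adjusted p = 0.0745), at 107 ± 103 CPM at 30M and 20.8 ± 4.71 CPM at 6M. Without 1 library its log2 fold change was 1.198 to 2.77, with a call without 30M_220 (adjusted p = 0.0222). Of 7 tested inhibitors, 1 rose: Pld4, a nuclease that degrades the nucleic acid ligands in endosomes, at 92.4 ± 8.92 CPM at 30M and 22.1 ± 8.02 CPM at 6M (2.06, SE 0.24, adjusted p = 0.00152; up to 0.0120 without any 1 library). The kinase-like inhibitor Irak3 had 0.67 (SE 0.22, adjusted p = 0.181) and the ubiquitin-editing Tnfaip3 0.51 (SE 0.24, adjusted p = 0.442). The medians of the 6 lists lay between 0.11 and 0.63, against 0.00284 over all tested genes.

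**Figure D5:**
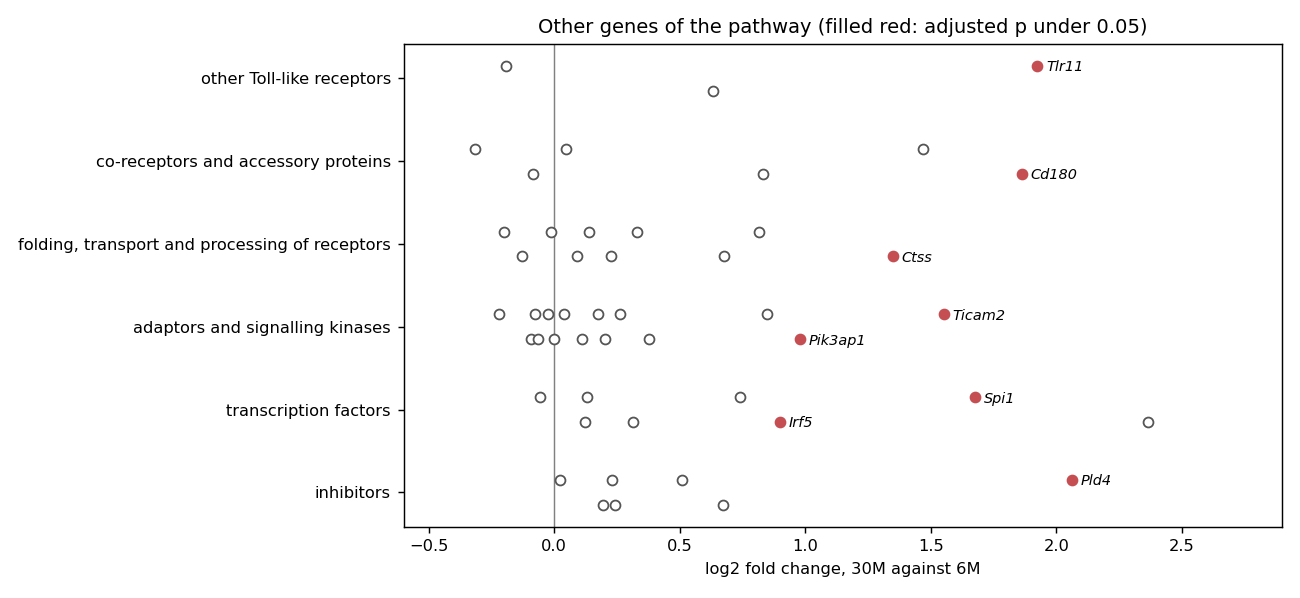
Log2 fold change at 30M against 6M (horizontal axis) of the other pathway genes by list, 1 point per tested gene, filled and named where the adjusted p was under 0.05. The 8 filled points are all to the right of 0, from 0.898 for Irf5 to 2.06 for Pld4, and most open points lie near 0.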

How the data were processed

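Whole lung RNA of 12 libraries was measured by poly-A-selected paired-end RNA sequencing, per the labels' protocols. The authors deposited unnormalized read counts per gene. The submitters' processing notes name featureCounts, HISAT2 2.1.0, Trimmomatic 0.38 and FastQC 0.11.7, and the build GRCm38 (mm10). Annotation release and strand setting were not given in the sources used here. Reads of overlapping genes therefore cannot be assigned with certainty.

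The members, gene lists and most alternatives were chosen with earlier results of these data known. Counts were tested with edgeR 4.0.16 in R 4.3.3 (TMM, filterByExpr by age, robust quasi-likelihood fit of all 12 libraries, no covariates). SE is the log2 fold change divided by the square root of the F statistic. All 10 members are named, with the 3 genes of smallest p at 30M against 6M in each pathway list. Exon length and GC content came from GENCODE M21 (GRCm38), with GC taken from the longest transcript. Promoters came from RefSeq (GRCm38.p6). The fit was tested on simulated data. Alternatives were DESeq2 1.42.0, limma voom 3.58.1, DESeq2's size factors, other count filters, GC corrections, fewer libraries and log2 age. Chi-square per gene between libraries of 1 age was 6.79 to 53.0, so none was a duplicate.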

Additional observations from a re-analysis of the deposited data

How the results depend on the processing

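At 30M against 6M, Tlr7, Tlr8 and Tlr13 were called under all 9 alternatives other than leaving out single libraries. The number of members called there was 5 with DESeq2 (Tlr9 and Unc93b1 added, where 4.09% of all tested genes were called). It was 1 to 4 when 1 library was left out (0.366% to 2.2% of all tested genes). Each percentage below is likewise the share of all tested genes called under the same setting. At 30M against 12M the number of members called was 4 with DESeq2 (2.74%) and 0 with only the 2 ages compared (0.353%). Without the 3 GC libraries (20M_221, 20M_222 and 30M_220) it was 1 (0.648%), and with a term for them 3 (Tlr13 added, 1.53%). It was 3 with no filter on low counts (Unc93b1 added, 0.569%), and 0 to 2 without 1 library (0% to 0.829%). At 30M against 20M it was 3 with DESeq2 (1.73%), 2 with limma voom (1.17%) and 1 with no filter on low counts (0.236%). Without 1 library it was 0 to 1 there (0% to 0.416%). For the slope it was 5 with DESeq2 (4.89%) or no filter on low counts (1.39%), with Tlr9 added in both. It was 3 with the GC trends removed (2.49%), 2 with log2 age (1.38%) and 2 to 5 without 1 library (1.24% to 3.24%). In the joint test it was 1 to 3 without 1 library (0.357% to 1.51%). Unc93b1 at 30M against 6M was called with DESeq2 (adjusted p = 0.00600), limma voom (0.0481), no filter (0.0415) or without 20M_221 (0.0471), and had up to 0.308 without another library. Pathway genes called at 30M against 6M numbered 13 with DESeq2 (4.09%), 12 with limma voom (3.26%) and 5 with the GC trends removed (1.76%). Without 1 library they numbered 2 to 7 (0.366% to 2.2%). Of the named pathway genes without a call in the main fit, Ly86, Irf7 and Ctsb were called with DESeq2, limma voom or a term for the GC libraries. Slc15a3 was called with DESeq2, limma voom, no filter on low counts or only the 2 ages compared. The causes were not tested.

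Among differences that were not called, some changed sign. Without the 3 GC libraries, 20M was left with the single library 20M_213, so differences of 20M under that setting rest on it. With the term for them, 20M_213 was the only library of 20M outside the term. At 30M against 12M, Tlr3 had -0.036 with the GC trends removed. At 20M against 6M, Tlr1 had -0.0031 with DESeq2 and -0.0037 with its size factors, Tlr6 had -0.056 without the 3 GC libraries, and Tlr3 had 0.064 with the GC trends removed, 0.089 with a term for the GC libraries and 0.15 without them. At 20M against 12M, Tlr2 had -0.11 with limma voom, -0.033 with the GC trends removed and -0.016 without the GC libraries, Tlr6 had -0.12 without them, Tlr9 had -0.029 with the term and -0.22 without the libraries, and Tlr13 had 0.039 with the term. At 12M against 6M, Tlr4 had 0.060 with the GC trends removed and Tlr9 -0.024 with limma voom. Leaving out 1 library gave signs either way for Tlr4 at 30M against 6M (-0.025 to 0.35) and as a slope (-0.0043 to 0.013), and for Tlr3 at 30M against 12M (-0.045 to 0.074). At 20M against 6M this held for Tlr1 (-0.23 to 0.31), Tlr6 (-0.27 to 0.42) and Tlr3 (-0.26 to 0.015). At 20M against 12M it held for Tlr2 (-0.23 to 0.40), Tlr6 (-0.34 to 0.38) and Tlr7 (-0.10 to 0.35), and at 12M against 6M for Tlr2 (-0.297 to 0.33), Tlr4 (-0.30 to 0.076), Tlr6 (-0.28 to 0.39) and Unc93b1 (-0.19 to 0.078).

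No paired analysis was possible because the ages share no replicate number. Depth limits Tlr8, Tlr9, Tlr6 and Tlr11, with 61, 71, 93 and 23 counts over the 3 libraries of 6M.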

Other observations

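Genes with levels over the 12 libraries most like those of Unc93b1 and the 3 called receptors were sought among tested genes averaging at least 1 CPM. The measure was the root mean square difference of log2 CPM, each gene centred on its own mean. Members and genes with predicted or clone-type symbols were left out, so no member could appear as most like another. For Tlr7 they were Mpeg1, a pore-forming protein of macrophages (root mean square difference 0.26), Oasl2, an interferon-stimulated gene (0.297), and Cybb, the NADPH oxidase subunit of phagocytes (0.298), against an SD of Tlr7 itself of 0.77. For Tlr13 they were the interferon-stimulated gene Rtp4 (0.26), Oasl2 (0.27) and Mpeg1 (0.296), against an SD of 0.74, so 2 of the 3 genes were also on the list of Tlr7. For Tlr8 they were the leukocyte receptor Cd300a (0.34), the receptor Gpr35 (0.37) and Naip2, a sensor of bacterial proteins (0.37), against an SD of 0.93. For Unc93b1 they were Uba7, the activating enzyme of the ubiquitin-like protein ISG15 (0.12), the interleukin receptor Il17ra (0.12) and the transporter Slc12a9 (0.14), against an SD of 0.38. These are descriptions, since all genes were measured in the same libraries.

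Tlr1 is known from B cells as well as myeloid cells, so its levels are given beside the B cell markers. In 30M_216 it stood at 8.54 CPM, in 30M_218 at 11.9 and in 30M_220 at 12.7, and the 6 B cell markers summed there to 82.4, 79.0 and 305 CPM. At 6M it stood at 9.39, 6.68 and 4.36 CPM in 6M_201, 6M_202 and 6M_203, whose B cell markers summed to 295, 174 and 143 CPM. No relation between them was tested.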
